A study of Mus musculus with 32 samples.

Results

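Imprinted genes are transcribed mainly or wholly from the copy inherited from 1 parent. The 40 members described here are well-known imprinted genes of the mouse, found by symbol in a table of RNA polymerase II (Pol II) occupancy over genes. All 40 were among its 27179 genes, on 9 chromosomes, and 39 had enough reads to be tested. The exception was Snurf, listed at 0 reads in every sample column.

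The study took brain, heart, kidney and liver from mice and preserved each organ in 2 ways. Frozen tissue was flash frozen, cored, and then crosslinked with 1% formaldehyde for 30 min. FFPE tissue was fixed in 10% formalin, embedded in paraffin, freed of wax and heated in buffer, so preservation and extraction differ together. Chromatin from both was sheared and precipitated with an antibody to the Pol II C-terminal domain. Strain, sex and age of the mice were not given in the sources used here, and no genetic change or drug is named. The table holds 1 column for each organ and preservation, 8 in all. Each column is called a profile. It is unknown whether a profile is 1 library or several, or whether frozen and FFPE tissue came from the same mouse. An organ is therefore measured by 2 profiles, and p-values cover the spread between profiles only.

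Imprinting is set in the germ line, where DNA methylation is placed on control regions in eggs or in sperm and is then kept through development. The genes lie in clusters that share a control region, and many clusters hold a long noncoding RNA beside protein-coding genes. Many imprinted genes act on fetal growth and in the placenta, and a number of them remain active in the adult brain. Pol II over a gene measures both parental copies together, so the parent of origin was not measured here. In whole tissue, fewer cells that transcribe a gene and less Pol II per cell cannot be told apart.

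The profiles held 864816 to 2178329 reads in genes, and the median gene had 16 to 39 reads. Levels are log2 RPM, reads per 1000000 of a profile's scaled total, with 0.5 reads added to each count. A difference of 1 is 2-fold, and low counts shrink differences. Mitochondrial genes took 7.73% to 25.6% of reads, the most in FFPE heart and FFPE kidney. Cell type markers followed the organ labels. All 5 neuron markers were higher in brain, all 5 cardiomyocyte markers in heart, 4 of 5 proximal tubule markers in kidney and all 5 hepatocyte markers in liver. Reads also fell on markers outside their organ, and the hepatocyte marker Apoa1 stood at 3.92 to 5.26 in brain, heart and kidney. Over 1481 receptor genes that are silent in these organs, the median level was 1.59 to 2.31 by profile. Whether a member at such levels exceeds background was not tested. A gene is called changed where its adjusted p is under 0.05 over the 26758 genes tested (limma). Frozen values are given before FFPE values throughout.

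Brain had more Pol II over Meg3, Rian and Rtl1 of the Dlk1-Meg3 cluster, and over Peg3 and Nap1l5. Of 39 members tested, 5 were higher in brain than in the other 3 organs and 1, Phlda2, was lower. Over all genes the share called was 7.46%, with 3.43% higher and 4.02% lower. Heart had 2 members higher, Igf2r and Cdkn1c, and none lower, against 3.06% and 2.18% of all genes (5.24% called). Kidney had none called, against 1.38% of all genes, 0.919% higher and 0.456% lower. Liver had Ddc higher and 4 members lower, against 4.52% and 3.39% of all genes (7.91% called). The members' median log2 difference was 0.22 for brain, -0.04 for heart, -0.19 for kidney and -0.17 for liver. The same medians over all genes tested were 0.01, -0.00, -0.00 and -0.02. Scaled instead to receptor genes that are silent in these organs, the members' median was 0.03 for brain and 0.22 for heart, beside -0.18 and 0.25 over all genes.

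**Figure D1:**
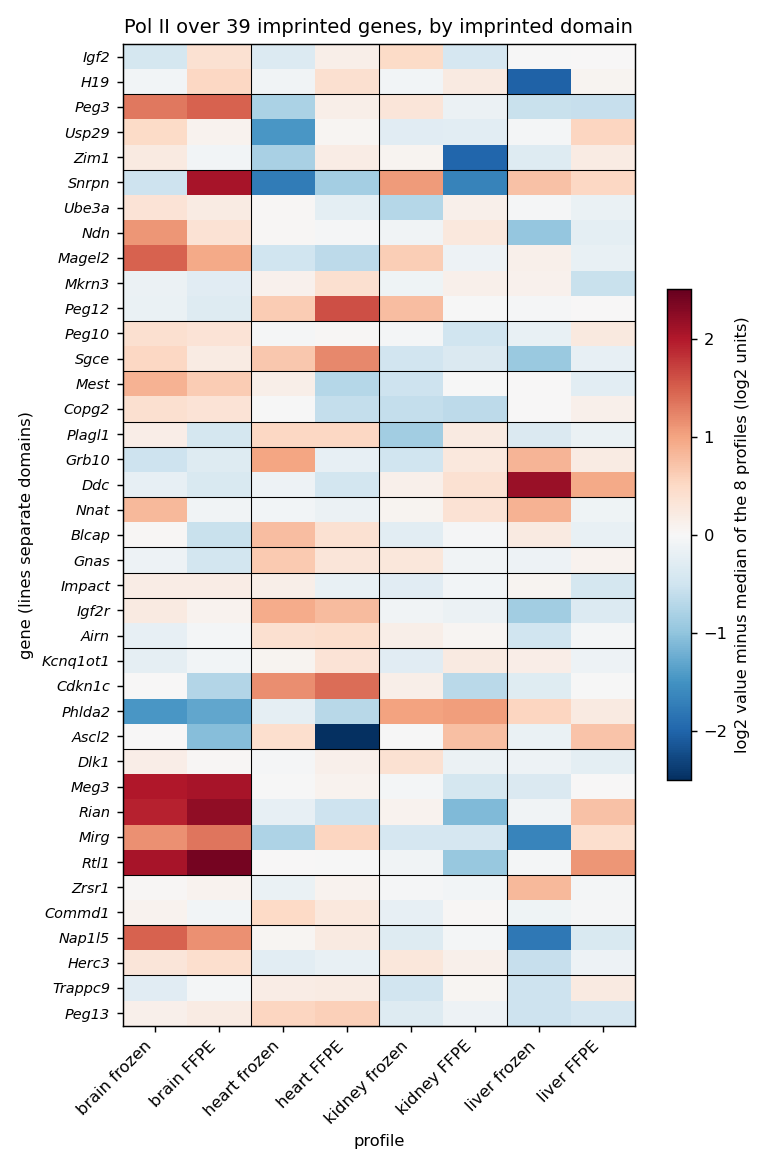
Pol II level of the 39 tested imprinted genes (rows, grouped by imprinted cluster) in the 8 profiles (columns), coloured by log2 level minus that gene's median over the profiles; values beyond the ends of the colour bar take its end colours. Meg3, Rian, Rtl1, Peg3, Magel2 and Nap1l5 are red in both brain profiles, Phlda2 is blue there, Cdkn1c and Igf2r are red in both heart profiles and Ddc in both liver profiles.

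Counting ranks rather than tests, both brain profiles lay above all 6 others for 14 members and below them for 2. The shares over all genes were 8.4% and 7.05%. Both heart profiles lay above the others for 9 members and below for 1, against 7.66% and 5.62% of all genes. For kidney the counts were 1 and 1, against 4.92% and 3.05%. Those for liver were 1 above and 4 below, against 7.29% and 6.16%. The highest of the 8 profiles was from brain for 17 of the 39 members, heart for 13, liver for 5 and kidney for 4. That count was not made over all genes, so it has no reference. The added reads also raise low counts more in profiles with fewer reads, and 0 reads stand at -0.67 in FFPE heart and -2.02 in FFPE brain. Grouped by the parental copy known to be active, 3 of 21 paternally expressed members were higher in brain (Peg3, Rtl1 and Nap1l5). Of 13 maternally expressed ones, 2 were higher (Meg3 and Rian). The share higher over all genes was 3.43%. Rtl1 overlaps Meg3 and Rian in part and lies opposite microRNA genes. Reads in the shared stretches cannot be told apart, so the split is uncertain for Rtl1. The 1 member lower in brain, Phlda2, is maternally expressed.

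The Dlk1-Meg3 cluster on mouse chromosome 12 carries a growth-regulating protein gene, Dlk1, and a retrotransposon-derived gene, Rtl1, both active from the paternal copy. From the maternal copy come the long noncoding RNAs Meg3, Rian and Mirg, together with a large array of microRNAs and small nucleolar RNAs. The 250 bases before the starts of Meg3, Rian and Mirg are shown because the 3 RNAs run one after another on the plus strand and their levels are compared below. They come from RefSeq on build GRCm38.p6 (mm10): Meg3 at chr12:109540746-109540995, Rian at chr12:109603695-109603944 and Mirg at chr12:109734731-109734980. Capitals mark the letters TGACGTCA, the palindromic cyclic AMP response element, and TATAAA on either strand.
Meg3: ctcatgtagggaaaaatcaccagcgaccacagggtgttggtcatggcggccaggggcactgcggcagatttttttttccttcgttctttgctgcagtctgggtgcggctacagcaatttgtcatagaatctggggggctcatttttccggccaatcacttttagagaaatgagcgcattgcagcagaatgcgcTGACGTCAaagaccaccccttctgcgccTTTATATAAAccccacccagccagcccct
Rian: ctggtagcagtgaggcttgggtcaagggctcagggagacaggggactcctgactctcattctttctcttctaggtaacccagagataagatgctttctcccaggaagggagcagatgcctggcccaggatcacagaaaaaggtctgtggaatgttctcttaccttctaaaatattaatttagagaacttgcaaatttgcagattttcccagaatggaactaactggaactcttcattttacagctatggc
Mirg: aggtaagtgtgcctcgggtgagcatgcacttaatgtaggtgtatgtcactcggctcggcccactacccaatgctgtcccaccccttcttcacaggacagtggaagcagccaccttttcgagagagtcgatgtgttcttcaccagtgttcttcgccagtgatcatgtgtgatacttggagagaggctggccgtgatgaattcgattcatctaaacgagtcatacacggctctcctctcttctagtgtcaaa

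The Meg3 window held both motifs, with 2 overlapping TATAAA matches on opposite strands joined in 1 capital run, and 10 CG dinucleotides. Neither motif was in the Rian or Mirg window, and Rian's held 0 CG dinucleotides against 10 in Mirg's. The Rian window lies within the annotated span of Rtl1, and the Mirg window contains the microRNA genes Mir668 and Mir485. TGACGTCA occurred in 1.55% of 32851 promoter windows of this length and TATAAA in 12.4%. Of the 47 windows of 32 members with an entry, 2 held TGACGTCA and 11 held TATAAA. A match describes the letters only, and Pol II within these windows was not measured separately.

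Meg3 RNA is a nuclear noncoding RNA made in many adult neurons. Frozen and FFPE brain held 520 and 578 Meg3 reads, and the other 6 profiles 57 to 126. Its log2 level was 8.10 and 8.16 in brain, 6.07 and 6.17 in heart, 6.04 and 5.66 in kidney, and 5.74 and 6.11 in liver. Both brain profiles were far above the rest, which overlapped between organs. The brain difference was 2.16 ± 0.23 (SE; 2 against 6 profiles; adjusted p = 3.1e-06), 4.47-fold. It was 2.15 among frozen and 2.17 among FFPE profiles, and Meg3 was called in brain under all 17 alternative settings tried, at 1.97 to 2.36.

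Rian, the host RNA of small nucleolar RNAs, had 136 and 179 reads in brain, 24 and 10 in heart, 38 and 12 in kidney, and 33 and 29 in liver. The log2 levels were 6.17 and 6.47, 4.04 and 3.72, 4.33 and 3.15, and 4.16 and 4.98 in the same order. The brain profiles did not overlap the others, and FFPE liver was the nearest. Rian was 2.26 ± 0.37 higher in brain (adjusted p = 0.00036), and without FFPE brain the difference was 1.99 with adjusted p = 0.088. Rtl1 lies opposite the microRNA genes that target it, and in the annotation its span reaches into both Meg3 and Rian. Its reads were 124 and 168 in brain, 23 and 12 in heart, 28 and 11 in kidney, and 28 and 31 in liver. The log2 levels were 6.04 and 6.38, 3.98 and 3.97, 3.89 and 3.03, and 3.92 and 5.08, so FFPE liver again stood above the other non-brain profiles. The brain difference of Rtl1 was 2.23 ± 0.38 (adjusted p = 0.00049). With 1 brain profile left out the size held but the call did not (2.10, adjusted p = 0.078 without FFPE brain; 2.35, adjusted p = 0.066 without frozen brain). Reads of precipitated chromatin come from both strands of the DNA. Pol II reads of Rtl1 and of Meg3 and Rian, which run the other way, therefore cannot be told apart where the spans overlap. The overlap is partial, as Rtl1 spans bases 109564900 to 109604418, Meg3 ends at 109571729 and Rian starts at 109603945. The stretch between them lies opposite microRNA genes, whose reads cannot be told apart from those of Rtl1 by strand either.

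Mirg, the host of the last microRNAs of the array, had 45 and 55 reads in brain and 6 to 15 elsewhere. Its levels were 4.58 and 4.77 in brain, 2.67 and 3.97 in heart, 3.02 and 3.03 in kidney, and 1.79 and 3.86 in liver. Brain was above every other profile, yet the difference of 1.62 ± 0.52 missed the threshold (adjusted p = 0.062), which it passed in 3 of 17 alternative settings. Dlk1, which starts the cluster and encodes a membrane protein that restrains fat cell formation, varied little. Its level was 4.65 and 4.52 in brain, 4.45 and 4.61 in heart, 4.86 and 4.34 in kidney, and 4.36 and 4.23 in liver. The brain difference of Dlk1 was 0.11 ± 0.34 (adjusted p = 0.93). All 8 levels of Dlk1 lay within those of the hepatocyte marker Apoa1 outside liver, 3.92 to 5.26. Whether Dlk1 exceeded background in any organ was not tested. The annotated end of Dlk1 lies 77660 bases from the start of Meg3.

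**Figure D2:**
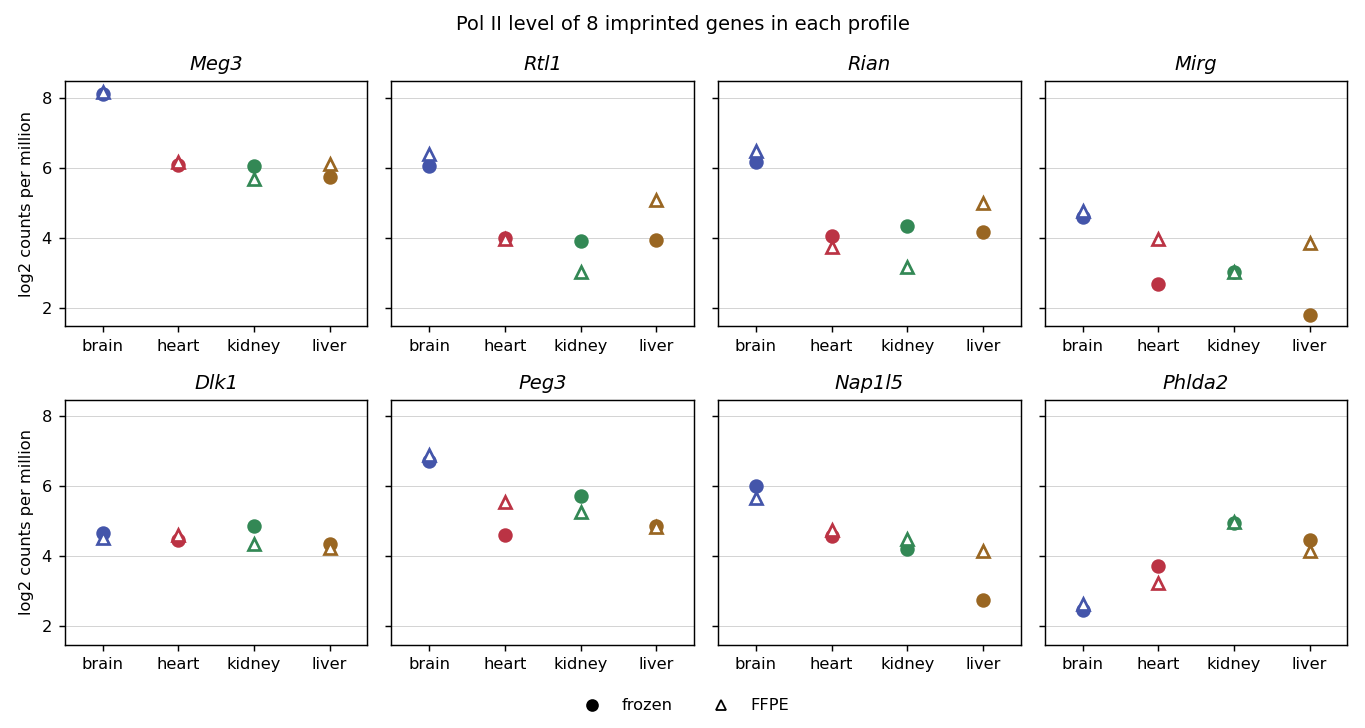
Log2 RPM (vertical axis) of 8 imprinted genes in brain, heart, kidney and liver (horizontal axis), with filled circles for frozen and open triangles for FFPE profiles. Both brain points sit above all others for Meg3, Rtl1, Rian, Mirg, Peg3 and Nap1l5 and below all others for Phlda2, while the 8 points of Dlk1 lie between 4.23 and 4.86.

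The small RNA genes downstream of Meg3 were counted as genes of their own. From the start of Meg3 to the end of Mirg, 208.5 kb, the table lists 64 of them, 57 for microRNAs and 7 for small nucleolar RNAs. They were picked by position after the levels had been seen, and are described without a test. Summed over the 64, the RPM values were 123 and 147 in brain, 31.5 and 42.7 in heart, 51.7 and 22.0 in kidney, and 27.7 and 53.6 in liver. Both brain profiles were thus more than 2 times any other. The other 702 small RNA genes of the table summed to 1164 and 1079 RPM in brain and 1042 to 1837 elsewhere, so brain was not the highest organ for those. Of the 64, 54 had at least 1 read, and 50 of these had a higher mean level in brain than over the other 6 profiles. That count was not made for the other 702, so it has no reference. Many of the 64 lie inside Rtl1, Rian or Mirg, whose brain profiles were already the highest.

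Single small RNA genes rested on few reads. Mir1197 had the most, 7 and 16 in brain and 0 to 6 in the other profiles. Mir3072, inside Mirg, had 14 and 7 reads in brain and 0 or 1 elsewhere, and Mir370, inside Rian, had 17 and 2 in brain and 0 to 4 elsewhere. No single gene of the array is therefore compared between organs. A further 10 small RNA genes, among them Mir127 within Rtl1 and Mir410 within Mirg, were at 0 in all 8 profiles, and each lies inside Meg3, Rtl1, Rian or Mirg. How the authors counted a read that falls on overlapping genes was not given in the sources used here.

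**Figure D3:**
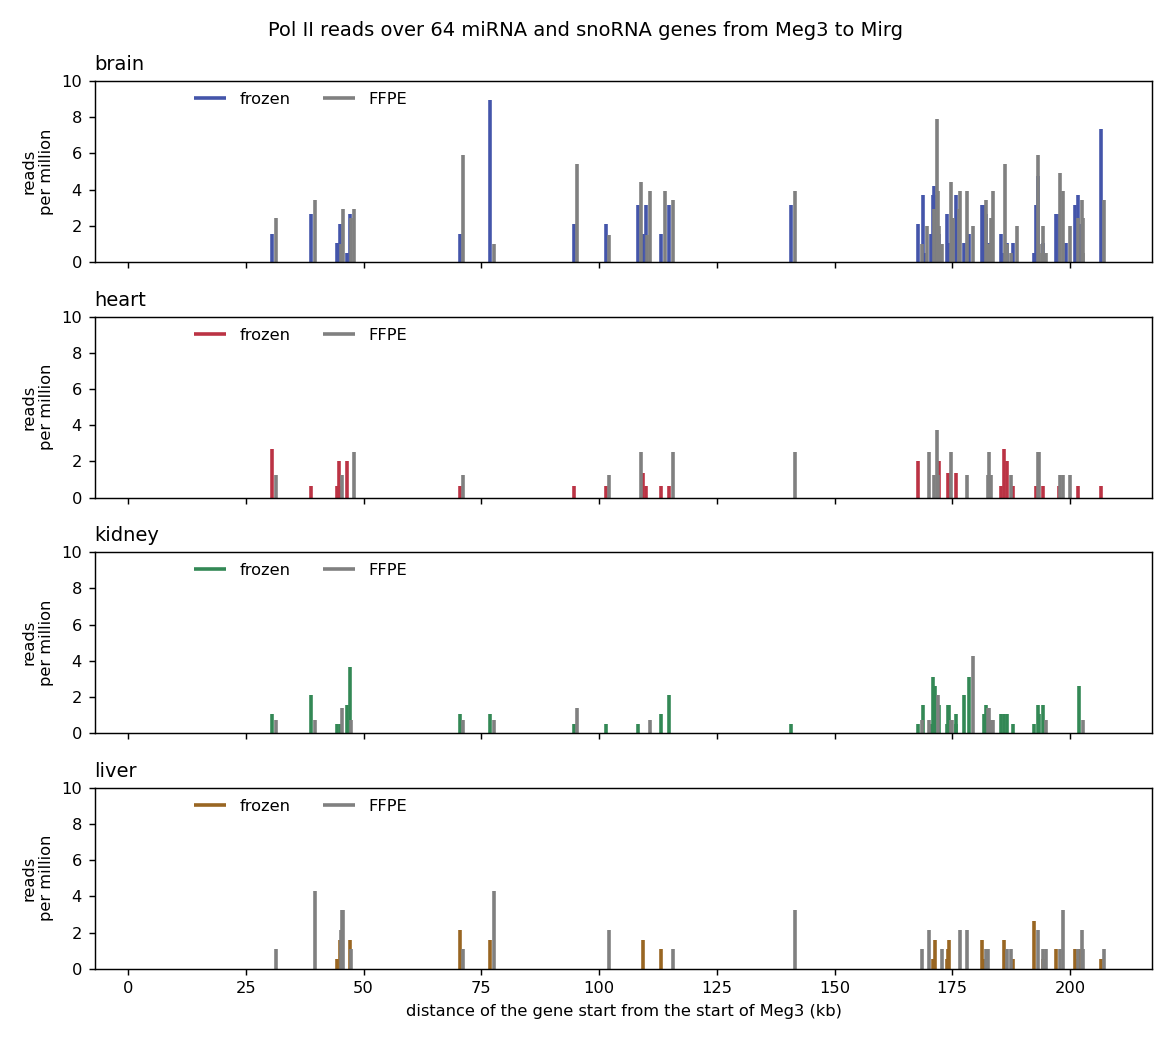
RPM (vertical axis) over each of the 64 microRNA and small nucleolar RNA genes, placed by distance of the gene start from the start of Meg3 in kb (horizontal axis), with 1 panel for each organ. Coloured lines are frozen and grey lines FFPE profiles, drawn side by side. The 10 genes without a read show no line in any panel, and 50 of the other 54 have a higher mean in brain than over the other 6 profiles.

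Matched to RefSeq, the 57 microRNA genes give 106 mature microRNAs. Their seeds, bases 2 to 8, pair with target messages, and 9 seeds are shared by 14 of the genes. Pairs with a shared seed are printed 5′ to 3′, the seed in capitals, because they show which genes of the array can be grouped by seed. Mir379 and Mir411, near the start of the larger group of microRNA genes, share the seed of their 3p arms, and Mir379 shares its 5p seed with Mir1193. Mir1197 and Mir758, which lie on either side of Mir323, share a 5p seed, and so do Mir376c and Mir376b, on either side of Mir654.
miR-379-3p: uAUGUAACaugguccacuaacu
miR-411-3p: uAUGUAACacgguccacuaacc
miR-379-5p: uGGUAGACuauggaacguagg
miR-1193-5p: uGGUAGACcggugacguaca
miR-1197-5p: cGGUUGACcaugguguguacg
miR-758-5p: uGGUUGACcagagagcacacg
miR-376c-5p: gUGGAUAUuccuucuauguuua
miR-376b-5p: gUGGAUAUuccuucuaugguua

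Counts over both brain profiles for these genes were 6 for Mir379, 11 for Mir411, 7 for Mir1193, 23 for Mir1197, 11 for Mir758, 13 for Mir376c and 7 for Mir376b. The totals over all 8 profiles were 12, 14, 15, 33, 19, 17 and 14 in that order. ChIP reads over a microRNA gene measure Pol II passing the hairpin in DNA, not the mature microRNA.

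Besides Rtl1, the paternally expressed genes Peg3 and Nap1l5 were higher in brain. Peg3 encodes a zinc finger protein linked to maternal behaviour and to energy balance, and Nap1l5 a nucleosome assembly protein relative that sits within an intron of Herc3. Their windows, Peg3 at chr7:6730420-6730669 and Nap1l5 at chr6:58907127-58907376, both on the minus strand of GRCm38.p6, are shown beside that of Meg3. Capitals mark the same motifs.
Peg3: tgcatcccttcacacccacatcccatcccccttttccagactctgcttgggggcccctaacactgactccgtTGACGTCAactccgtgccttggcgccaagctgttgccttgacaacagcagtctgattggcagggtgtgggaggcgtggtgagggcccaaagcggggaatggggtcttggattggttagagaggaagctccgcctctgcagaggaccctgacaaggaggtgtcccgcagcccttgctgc
Nap1l5: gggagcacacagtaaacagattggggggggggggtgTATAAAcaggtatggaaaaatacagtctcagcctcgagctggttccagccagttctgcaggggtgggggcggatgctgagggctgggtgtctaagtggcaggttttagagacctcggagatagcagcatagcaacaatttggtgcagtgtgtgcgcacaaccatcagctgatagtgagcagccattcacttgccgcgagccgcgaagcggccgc

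Peg3 and Meg3 were the only members whose windows held TGACGTCA. The Nap1l5 window held TATAAA. CG dinucleotides numbered 8 in the Peg3 window and 10 in the Nap1l5 window, against a median of 6 over all windows and 10 over the members' windows.

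Peg3 had 200 and 239 reads in brain, 36 and 37 in heart, 100 and 54 in kidney, and 54 and 26 in liver. Its level was 6.72 and 6.88 in brain, 4.61 and 5.56 in heart, 5.71 and 5.27 in kidney, and 4.86 and 4.83 in liver. The brain profiles did not overlap the others, of which frozen kidney was the nearest. The brain difference was 1.66 ± 0.28 (adjusted p = 0.00044), 3.17-fold, and without frozen brain it was 1.66 with adjusted p = 0.074. Usp29, a ubiquitin protease gene whose annotated start lies 97 bases from that of Peg3 on the other strand, overlapped between organs. Usp29 stood at 5.31 and 4.92 in brain, 3.38 and 4.88 in heart, 4.54 and 4.57 in kidney, and 4.78 and 5.37 in liver. Its brain difference was 0.53 ± 0.36 (adjusted p = 0.49), and FFPE liver was its highest profile. Zim1, a maternally expressed zinc finger gene of the same cluster, had a brain difference of 0.53 ± 0.50 (adjusted p = 0.68) and 6 to 40 reads a profile.

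Nap1l5 had 121 and 103 reads in brain, 35 and 21 in heart, 35 and 31 in kidney, and 12 and 16 in liver. Brain stood at 6.0 and 5.67, heart at 4.57 and 4.75, kidney at 4.21 and 4.48, and liver at 2.73 and 4.15. Brain was above and liver below every other profile. The difference was 1.69 ± 0.36 in brain (adjusted p = 0.0044), 3.22-fold, and -1.51 ± 0.36 in liver (adjusted p = 0.010). Leaving out frozen brain took the brain value to 1.21 (adjusted p = 0.54) and the liver value to -1.35 (adjusted p = 0.075), and leaving out frozen liver took the liver value to -0.82 (adjusted p = 0.37). Herc3, the ubiquitin ligase gene around it, was at 6.16 and 6.28 in brain, 5.58 and 5.67 in heart, 6.14 and 5.97 in kidney, and 5.27 and 5.73 in liver. Brain was highest for Herc3 too, but by 0.49 ± 0.24 (adjusted p = 0.29), with frozen kidney close below frozen brain.

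These brain differences moved with the neuron markers Snap25, Syt1, Eno2, Stmn2 and Grin1. The 5 summed to 523 and 492 RPM in brain and 66.6 to 124 elsewhere, with none at 0 in any profile. None of the choroid plexus, meningeal or pituitary markers was called in brain. The part of neuron content in the members' differences was not tested.

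The Snrpn-Ube3a cluster on chromosome 7, the counterpart of the human Prader-Willi and Angelman region, had no member called in any organ, though Magel2 passed under some alternative settings. Snrpn, a splicing protein gene, had 1 and 9 reads in brain, 4 and 0 in kidney, 3 and 1 in liver and 0 in both heart profiles, too few to compare. Snurf, which shares its transcript, was listed at 0 throughout. Snurf lies whole inside Snrpn, and both lie inside the noncoding gene Snhg14, so reads on them may not have been counted. The low counts of Snrpn and Snurf therefore do not show how much Pol II was there. Ube3a, the ubiquitin ligase silenced on the paternal copy in neurons, was at 7.07 and 6.92 in brain, 6.75 and 6.49 in heart, 6.01 and 6.85 in kidney, and 6.70 and 6.55 in liver. Brain was the highest organ for it, by 0.44 ± 0.24 (adjusted p = 0.35). Magel2, which acts in recycling of proteins from endosomes, had 67 and 50 reads in brain and 6 to 37 elsewhere, and a brain difference of 1.34 ± 0.42 (adjusted p = 0.055). It passed the threshold in 4 of 17 alternative settings, with the lowest adjusted p of 0.0071 under voom weights and the highest of 0.65 without frozen brain. Ndn, whose product limits cell growth, had 44 and 28 reads in brain and 8 to 19 elsewhere, with a difference of 0.91 ± 0.49 (adjusted p = 0.35). Of the 2 remaining genes, Mkrn3 ranged from 3.49 to 4.46 over the profiles, and Peg12 from 3.41 in FFPE brain to 5.35 in FFPE heart.

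The long noncoding RNA gene Snhg14, no member of the set, covers Snrpn and Snurf whole and runs into Ube3a against its direction. It was looked at after the members' values were seen. Its reads were 53 and 88 in brain, 12 and 21 in heart, 14 and 13 in kidney, and 24 and 13 in liver. The levels were 4.82 and 5.45, 3.07 and 4.75, 2.92 and 3.26, and 3.71 and 3.86. Both brain profiles were the highest, with FFPE heart close below frozen brain. The difference was 1.54 ± 0.43 (adjusted p = 0.028, over all genes). Reads that fall on 2 of these genes cannot be assigned to either by strand.

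Mest, a hydrolase gene of the early embryo, and Copg2, whose end overlaps that of Mest, both had brain as their highest organ. Mest was at 5.95 and 5.71 in brain, 5.24 and 4.37 in heart, 4.57 and 5.07 in kidney, and 5.10 and 4.83 in liver. Its brain difference was 0.97 ± 0.30 (adjusted p = 0.055), past the threshold in 8 of 17 alternative settings. That of Copg2, a coat protein gene of Golgi vesicles, was 0.66 ± 0.27 (adjusted p = 0.18). Peg10, a retrotransposon-derived gene needed in the placenta, ranged from 4.77 in FFPE kidney to 5.68 in frozen brain. Sgce, the epsilon-sarcoglycan gene that starts 102 bases from Peg10 on the other strand, peaked in heart instead. It was at 4.68 and 4.35 in brain, 4.83 and 5.35 in heart, 3.68 and 3.79 in kidney, and 3.22 and 3.96 in liver, a heart difference of 1.15 ± 0.38 (adjusted p = 0.090; past the threshold in 2 of 17 alternative settings).

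In heart, the insulin-like growth factor 2 receptor gene Igf2r and the cell cycle inhibitor gene Cdkn1c were higher. Igf2r encodes the receptor that clears IGF2 and carries enzymes to lysosomes, and is expressed from the maternal copy. It had 231 and 227 reads in brain, 297 and 145 in heart, 188 and 133 in kidney, and 107 and 77 in liver. The levels were 6.93 and 6.81, 7.64 and 7.51, 6.62 and 6.56, and 5.84 and 6.38. Heart was above and liver below every other profile, with brain and kidney between. Igf2r was 1.05 ± 0.22 higher in heart (adjusted p = 0.0050), 2.08-fold, and lower in liver, at -0.90 ± 0.22 (adjusted p = 0.011). The heart value was 1.18 without FFPE heart (adjusted p = 0.092) and 0.93 without frozen heart (adjusted p = 0.21).

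The liver value of Igf2r was -0.86 without frozen brain (adjusted p = 0.057), -0.86 without frozen heart (adjusted p = 0.0501) and -0.58 without frozen liver (adjusted p = 0.29). Scaled to silent receptor genes it was -0.87 (adjusted p = 0.30), so that the call was lost there too. Airn, the noncoding RNA that starts inside Igf2r and runs across its promoter to silence the paternal copy, showed a smaller spread. Airn stood at 4.62 and 4.77 in brain, 5.22 and 5.26 in heart, 4.98 and 4.88 in kidney, and 4.32 and 4.77 in liver. Both heart profiles were the highest, by 0.51 ± 0.31 (adjusted p = 0.41). The 2 genes overlap on opposite strands, so part of the reads could be counted for either.

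Cdkn1c, the p57 inhibitor of cyclin-dependent kinases, had 44 and 28 reads in brain, 77 and 48 in heart, 49 and 20 in kidney, and 35 and 21 in liver. Its level was 5.70 and 5.93 in heart and 3.81 to 4.69 in the other 6 profiles. Heart did not overlap them, and the difference was 1.53 ± 0.34 (adjusted p = 0.0088), 2.89-fold. Without FFPE heart it was 1.21 (adjusted p = 0.31), and without frozen heart 1.86 (adjusted p = 0.087). Other cells of the heart moved with these genes. All 5 endothelial markers were higher in heart, with a sum of 759 and 630 RPM against 132 to 328, and 1 of 6 fibroblast markers was called (sum 432 and 394 against 210 to 301). None of these markers was at 0, and their part in the 2 results was not tested.

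The other genes of Cdkn1c's cluster went different ways. Phlda2, which restrains growth of the placenta, had 10 and 12 reads in brain, 19 and 7 in heart, 58 and 44 in kidney, and 41 and 16 in liver. Brain stood at 2.47 and 2.62, heart at 3.71 and 3.23, kidney at 4.93 and 4.98, and liver at 4.47 and 4.15. The brain profiles were below and the kidney profiles above all others. In brain these levels were close to the medians of the silent receptor genes, 2.16 and 2.23. Phlda2 was lower in brain by a log2 difference of -1.70 ± 0.43 (adjusted p = 0.015), 3.25-fold. The call was lost without FFPE brain (-1.90, adjusted p = 0.14), without frozen brain (-1.50, adjusted p = 0.42) and without FFPE kidney (-1.66, adjusted p = 0.063), and also with library totals without scaling factors (-1.50, adjusted p = 0.051). In kidney the difference of 1.51 ± 0.43 missed the threshold (adjusted p = 0.093), which it passed under voom weights alone (adjusted p = 0.015).

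Kcnq1ot1, the noncoding RNA that silences this cluster on the paternal copy, had 703 to 1733 reads a profile. It ranged only from 9.41 in frozen kidney to 10.02 in FFPE heart, a range as narrow as that of Impact and narrower than those of the other tested members. Levels are not scaled to gene length, and Kcnq1ot1 is annotated from base 143213111 to 143296547 of chromosome 7. The part of length and background in its high, even level was not tested. Kcnq1, the potassium channel gene that contains Kcnq1ot1, had 19 to 59 reads a profile and was called in none of the 5 comparisons. Ascl2, a trophoblast transcription factor gene, had 12 to 30 reads in 7 profiles and 1 in FFPE heart, and its largest difference (-1.22 ± 0.63 in heart, adjusted p = 0.32) includes that profile. Igf2 and H19, the growth factor gene and the noncoding RNA gene of the neighbouring cluster that are strongly active before birth, had 15 to 46 and 5 to 34 reads. Igf2 stayed between 3.69 and 4.60, and the largest organ difference of H19 was -1.13 ± 0.51 in liver (adjusted p = 0.22), where frozen liver had 5 reads.

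Ddc, which encodes the decarboxylase that makes dopamine and serotonin and has an isoform imprinted in heart, was higher in liver. Its reads were 41 and 39 in brain, 34 and 14 in heart, 52 and 46 in kidney, and 211 and 45 in liver. Levels stood at 4.45 and 4.28, 4.53 and 4.19, 4.78 and 5.04, and 6.82 and 5.61. Both liver profiles were above the others, frozen liver by far the most. The liver difference of Ddc was 1.67 ± 0.32 (adjusted p = 0.0014), 3.18-fold. It was 2.23 among frozen and 1.11 among FFPE profiles, and without frozen liver it was 1.11 with adjusted p = 0.20. Hepatocyte markers showed the same inequality, with a sum of 7846 RPM in frozen and 1332 in FFPE liver, and their part in it was not tested. Grb10, the adjacent adaptor gene that dampens insulin signalling, was at 5.48 and 5.69 in brain, 6.98 and 5.80 in heart, 5.51 and 6.27 in kidney, and 6.85 and 6.20 in liver. The organs overlapped, and its largest difference was -0.69 ± 0.29 in brain (adjusted p = 0.19).

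Besides Nap1l5 and Igf2r, Meg3 and Peg3 were called lower in liver, by log2 differences of -0.77 ± 0.23 (adjusted p = 0.035) and -0.95 ± 0.28 (adjusted p = 0.037). The mean they were set against includes brain, where both were highest. The liver levels of Meg3 overlapped those of heart and kidney. For Peg3 both liver profiles lay between the 2 heart profiles and below both kidney profiles. The call was lost in 9 of 17 alternative settings for Meg3 and in 10 for Peg3. For Meg3 these included leaving out either brain profile (-0.77 without FFPE brain, adjusted p = 0.11; -0.78 without frozen brain, adjusted p = 0.12), either heart profile (-0.76 and -0.79; adjusted p = 0.089 without FFPE and 0.077 without frozen heart), frozen kidney (-0.68, adjusted p = 0.11) or frozen liver (-0.55, adjusted p = 0.37). For Peg3 these included -0.95 without either brain profile (adjusted p = 0.104 without FFPE and 0.113 without frozen brain), -0.78 without FFPE heart (adjusted p = 0.12), -0.82 without frozen kidney (adjusted p = 0.13), -0.82 without FFPE liver (adjusted p = 0.15) and -1.07 without frozen liver (adjusted p = 0.089).

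**Figure D4:**
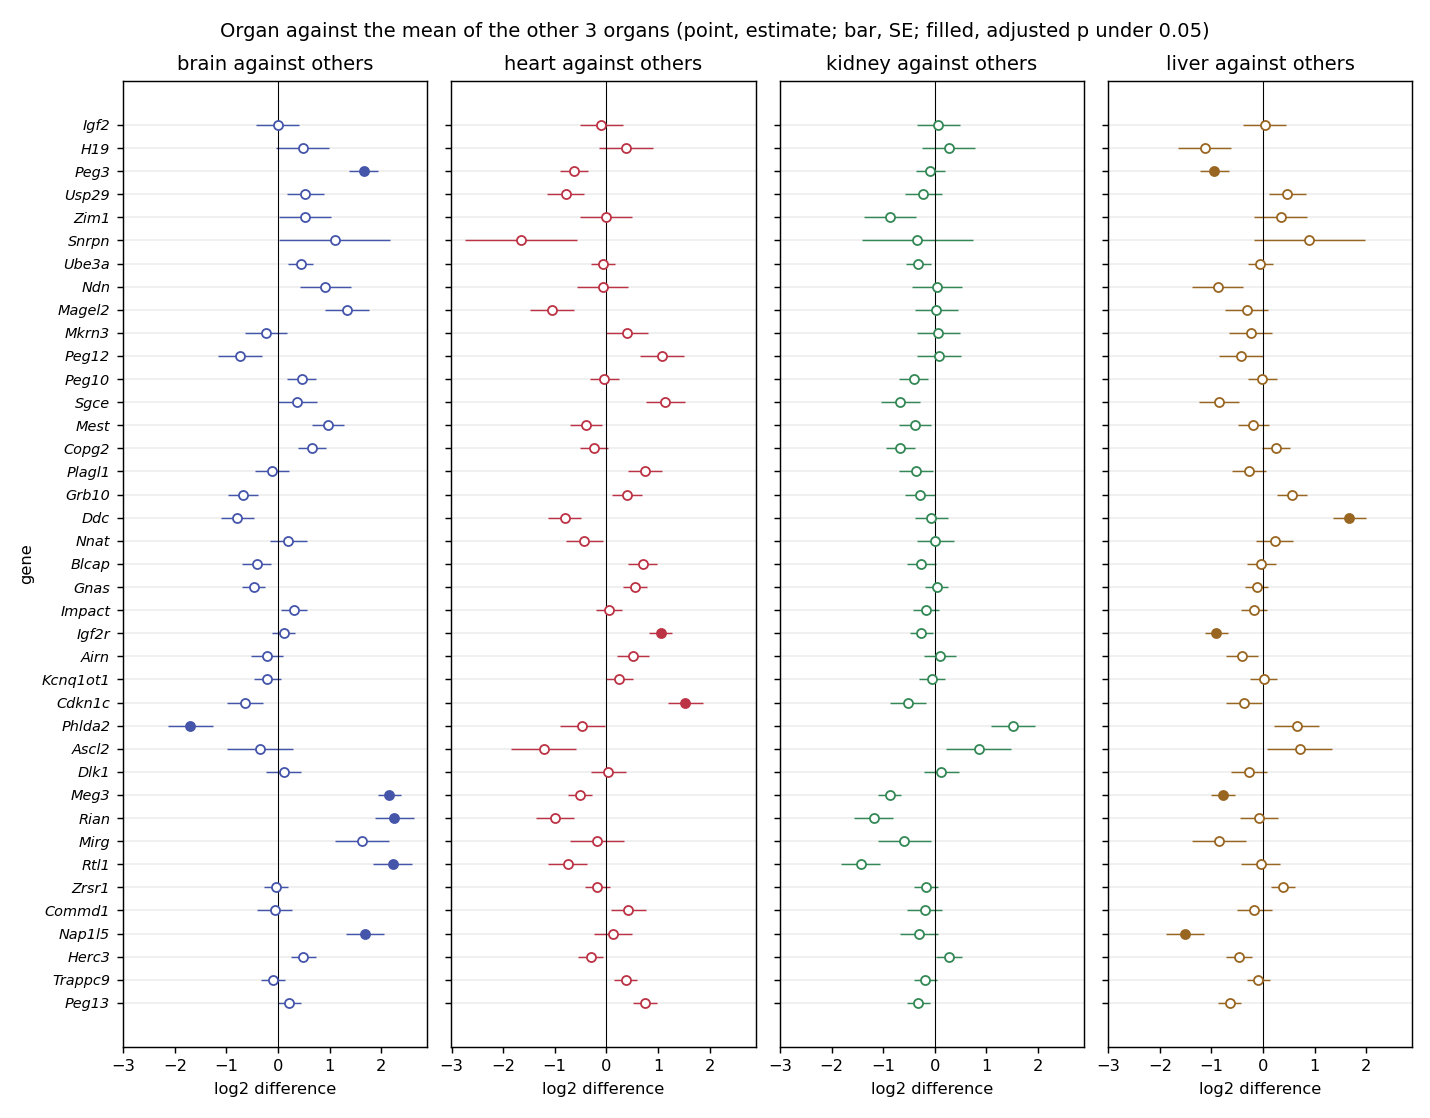
Log2 difference (horizontal axis) of each organ from the mean of the other 3 organs for the 39 tested imprinted genes (vertical axis), 1 panel an organ, with bars of 1 SE and filled points where the adjusted p was under 0.05. The brain panel has 5 filled points to the right and 1 to the left, heart 2 to the right, kidney none, and liver 1 to the right and 4 to the left.

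No remaining member was called in any organ. Gnas, the gene of the stimulatory G protein alpha subunit and of several imprinted isoforms, ranged from 5.98 in FFPE brain to 7.10 in frozen heart, and both heart profiles were its highest. Nnat, a neuronal proteolipid gene nested within Blcap, ranged from 4.19 to 5.19, with frozen liver highest. Frozen brain was second at 5.13 (66 reads), while FFPE brain stood at 4.25 (38 reads). Its brain difference was 0.20 ± 0.36 (adjusted p = 0.86). Blcap itself was highest in heart, at 6.0 and 5.59, by 0.71 ± 0.28 (adjusted p = 0.17). Plagl1, a zinc finger growth regulator, was at 5.50 and 5.52 in heart and 4.13 to 5.22 elsewhere (difference 0.76 ± 0.33, adjusted p = 0.21). Peg13, a noncoding RNA gene within Trappc9, was at 6.72 and 6.78 in heart and 5.65 to 6.39 elsewhere (0.75 ± 0.22, adjusted p = 0.054; past the threshold in 3 of 17 alternative settings). Trappc9 ranged from 6.04 to 6.78 with the organs overlapping. Zrsr1, a splicing factor gene within Commd1, lay between 6.46 and 6.71 in 7 profiles and reached 7.44 in frozen liver. Commd1 ranged from 4.29 to 4.99, and Impact, a translation regulator gene, from 5.29 to 5.92.

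A pair of lists of related genes were set beside the members. Of 35 other imprinted genes found, 1 was higher and 2 lower in brain, 1 was lower in heart, none was called in kidney, and 2 were higher and 1 lower in liver. The amino acid transporter gene Slc38a4 was the largest of them, at 8.33 and 7.60 in liver and 4.09 to 4.72 elsewhere. Its liver difference was 3.53 ± 0.28 (adjusted p = 2.8e-08), and its differences in brain (-1.39 ± 0.28) and heart (-1.33 ± 0.28) are against means that include liver. Slc22a3, an organic cation transporter gene of the Igf2r cluster, was 1.21 ± 0.29 higher in liver (adjusted p = 0.0086), and Klf14 lower, at -1.38 ± 0.38 (adjusted p = 0.025). In brain the neuronal exchange factor gene Rasgrf1 was 1.00 ± 0.29 higher (adjusted p = 0.032) and Cd81, a membrane tetraspanin gene, lower at -0.97 ± 0.26 (adjusted p = 0.023). None of 13 genes that maintain or read imprints, among them Trim28, Zfp57, Ctcf and Dnmt3a, was called in any of the 5 comparisons. The share called over all genes was 7.46% in brain, 5.24% in heart, 1.38% in kidney, 7.91% in liver and 0.576% for FFPE. Neither list was tested against these shares.

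No member passed the threshold between FFPE and frozen tissue, which differ in extraction as well as in fixation. The comparison of FFPE with frozen tissue, blocked by organ, called 0 of the 39 members, and 0 had an unadjusted p under 0.05; 0 were called with voom weights as well. Over all genes 0.576% were called, 0.153% higher and 0.422% lower in FFPE. The median difference of the members was 0.02, against -0.01 over all genes. H19, Mirg, Trappc9 and Peg13 were higher in FFPE tissue in all 4 organs and Magel2 lower, against 8.12% and 8.45% of all genes. For Trappc9 the FFPE minus frozen differences of brain, heart, kidney and liver were 0.23, 0.04, 0.53 and 0.74. For H19 they were 0.59, 0.50, 0.30 and 2.07, and for Mirg 0.19, 1.30, 0.01 and 2.06, the large liver values resting on 5 and 6 frozen liver reads.

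Within single organs, where 1 profile stands on each side and no test can be made, the spread was wider for genes with few reads. Ascl2 differed by -3.18 in heart, on 25 and 1 reads, and Zim1 by -2.05 in kidney, on 36 and 6. The 4 differences of Meg3 lay between -0.38 and 0.37, and those of Igf2r between -0.13 and 0.54. A gene with 0 reads in both heart profiles differs by 0.90 between them from the added 0.5 reads alone, which is the value of Snrpn in heart.

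**Figure D5:**
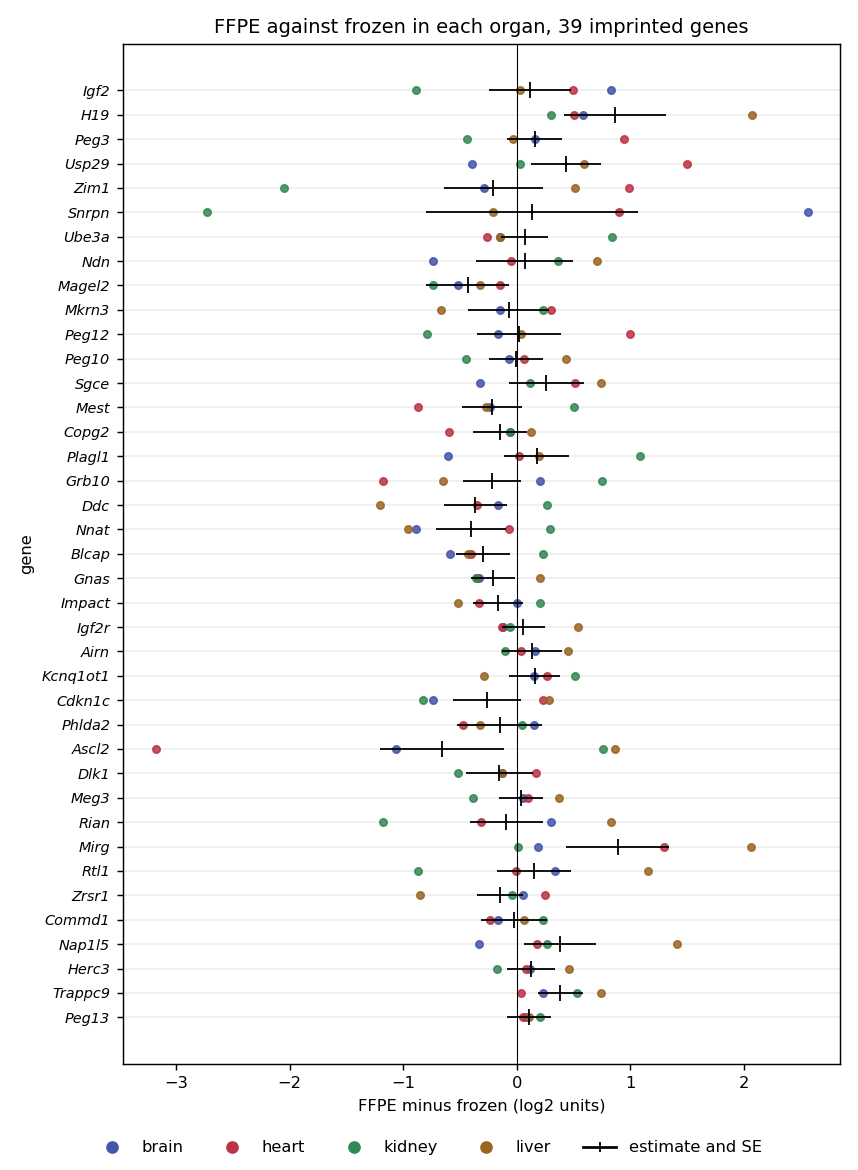
FFPE minus frozen log2 level (horizontal axis) of the 39 tested imprinted genes (vertical axis), with 1 coloured point for each organ and a black mark and bar for the estimate over the 4 organs and its SE. The 4 points share a side of 0 for H19, Mirg, Trappc9, Peg13 and Magel2, and the widest to the left are Ascl2 in heart at -3.18 and Snrpn in kidney at -2.73.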

How the data were processed

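Occupancy of Pol II was measured by chromatin immunoprecipitation and sequencing in 4 organs, frozen and FFPE. The labels list 32 libraries, 2 per group, including input; 1 table with 8 columns of log2 values was used and input was not analysed here. Columns carry no replicate number. Replicate numbers in the labels differ in sequencing date and library kit.

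Per the submitters' processing notes, the tools were Bowtie2, featureCounts and limma and the build was mm10; versions, strand and the feature counted were not given in the sources used here. Values in the deposited table are log2 RPM, reads per 1000000 of a scaled total, 0.5 reads added. Whole reads were recovered from them for 100% of values (relative tolerance 1e-06).

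Genes reaching log2 of 0 in 2 or more profiles entered the fit. limma 3.58.1 in R 4.3.3, with trended empirical Bayes and Benjamini-Hochberg adjustment, was fitted over all 26758 genes with organ and preservation as terms (3 residual and 19.4 prior degrees of freedom). Each organ was set against the mean of the other 3. The code was tested on simulated data. Sums for marker and small RNA genes are RPM of the scaled total. Positions and sequences are RefSeq's on GRCm38.p6.

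The members, gene lists and tests were chosen with earlier results of these data known. Members called, or sharing a locus with one called, are given profile by profile, the others by range with examples; values of Magel2, Ndn, Dlk1, Mirg, Usp29, Grb10 and Gnas and of single small RNA genes were added after they were seen. Alternatives varied the filter, scaling, added reads, weights, model terms and profiles; scaling to receptor genes and leaving out FFPE heart with FFPE kidney were added after seeing the data.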

Additional observations from a re-analysis of the deposited data

How the results depend on the processing

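No paired analysis was possible because the columns carry no replicate number, so the replicate block was not run. No difference given for a called member or one whose profiles did not overlap changed direction under the 17 alternatives. Counts of members called moved by over 1.5 times as follows. Quantile normalization called 10 in brain and 2 in kidney. Voom weights called 4 in heart and 2 in kidney. Without preservation as a term, liver had 3. Without FFPE heart and FFPE kidney, heart had 0 and liver 3, and scaled to silent receptor genes liver had 2. Leaving out each profile in turn gave 2 to 11 in brain, 0 to 6 in heart, 0 to 3 in kidney, 0 to 5 in liver and 0 for FFPE against frozen. A lone profile of an organ was then assumed to vary like the others, and fewer profiles were fitted.

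Scaling moved the median of all genes by over 0.1 in places. Library totals without scaling factors gave 0.21 in brain and -0.20 in heart. Totals also without mitochondrial genes gave -0.14 in liver and 0.11 for FFPE. Receptor scaling gave -0.18 in brain, 0.25 in heart, -0.11 in kidney and -0.20 for FFPE. Over all genes, the brain calls split 918 higher and 1077 lower as reported, 1197 and 572 without scaling factors, and 386 and 776 with receptor scaling. In heart they split 819 and 582, then 492 and 915 without scaling factors and 711 and 231 with receptor scaling. Liver split 1210 and 907, then 1057 and 1248 without mitochondrial genes and scaling factors and 773 and 349 with receptor scaling, and kidney 246 and 122, then 336 and 101 without mitochondrial genes and scaling factors. Genes with under 20 reads a profile, such as Snrpn, Mirg outside brain and the single small RNA genes, are limited by depth. For Snrpn and for small RNA genes inside other genes, the unknown counting of overlaps is a further limit.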
